A study of Homo sapiens with 22 samples.

Results

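The genes described here are all those in the expression files whose symbol names a collagen chain (COL followed by its type and chain numbers), a laminin chain (LAMA, LAMB or LAMC) or an integrin subunit (ITGA or ITGB), with the integrin-binding proteins ITGB1BP and ITGB3BP left out. There were 77 such genes among 20668 symbols, comprising 40 collagen, 11 laminin and 26 integrin genes. ITGBL1 met the rule by its symbol, although its product is a secreted integrin-like protein and no integrin subunit. RNA-seq was performed in MDA-MB-231 cells, a triple-negative breast cancer (TNBC) line that expresses the glucocorticoid receptor (GR). The 10 samples formed 5 groups of 2 replicates, namely vehicle, 100 nM Dex for 2 h, 100 nM Dex for 4 h, 10 μM CpdA for 2 h and 10 μM CpdA for 4 h, and all cells had been kept in phenol red-free medium with charcoal-stripped serum before treatment. Dex (dexamethasone) is a synthetic glucocorticoid agonist of GR and CpdA (compound A) is a non-steroidal GR ligand, so the comparisons ask which matrix and adhesion genes respond to each ligand and at which time. The labels gave no time for the vehicle samples, but the column headers of vehicle replicates 1 and 2 carry 2 h and 4 h, so the pair may be 1 sample for each time. They were used as 1 group and served as the reference for both ligands and both times, and within that group time and replicate cannot be told apart. The findings concern 1 cell line in culture, with no stromal or immune cells, and in bulk RNA fewer cells of a type and less RNA per cell cannot be told apart.

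Collagens are triple-helical proteins that form fibrils, networks and anchoring structures of the extracellular matrix. Laminins are trimers of an α, a β and a γ chain and build the basement membrane. Integrins are receptors of 1 α and 1 β subunit that bind these proteins, fibronectin and other ligands outside the cell and connect them to the actin or keratin cytoskeleton inside. In breast epithelium, integrins that bind laminin anchor cells to the basement membrane, and integrins that bind fibronectin and collagen take part in the migration of cancer cells.

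The deposited values were RPKM (reads per kilobase of transcript, scaled to the mapped reads of the sample). Of the 77 genes, 39 were at 0.5 RPKM or above in 2 or more of the 10 samples and were tested, which were 18 of 40 collagen, 7 of 11 laminin and 14 of 26 integrin genes, as against 12713 of all 20668 symbols. Among the 38 genes below this level, the highest value in any sample was 0.511 RPKM (ITGBL1), and none was at 0 in all 10 samples. The genes just below the limit were LAMA4, COL8A2 and ITGBL1, with a second-highest value of 0.266, 0.428 and 0.467 RPKM, and those just above it were COL16A1, COL17A1 and COL27A1, with 0.638, 0.880 and 1.54 RPKM. A gene that is below 0.5 RPKM here is low at this depth and was not shown to be absent.

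Several facts of the whole data set touch these results. The vimentin gene VIM was at 1267 to 1464 RPKM, whereas ESR1 and PGR did not exceed 0.0048 RPKM, although ERBB2 (15.9 to 21.6 RPKM) and EPCAM (8.02 to 10.6 RPKM) were not near 0. The summed RPKM of the GR targets TSC22D3, PER1 and FKBP5 was 16.6 to 17.8 in vehicle, 414 at Dex 2 h, 554 to 557 at Dex 4 h and 21.2 to 22.3 in CpdA, and that of the heat shock genes HSPA6 and HSPA1A was 2.01 to 2.09 in vehicle and 23.6 to 78.9 in CpdA. Of the 4 fibroblast markers, PDGFRA and DCN did not exceed 0.0148 RPKM, while PDGFRB was at 1.47 to 2.28 and LUM at 2.57 to 3.00. Of the 3 haematopoietic markers, PTPRC and CD3E did not exceed 0.063 RPKM and CD14 was at 2.17 to 2.89, and of the 2 melanocytic markers MLANA did not exceed 0.0467 and PMEL was at 0.481 to 0.804. The summed endothelial markers (KDR, PECAM1 and CDH5) were 1.07 to 1.08 RPKM in vehicle and 10.9 to 13.8 RPKM at Dex 4 h, through KDR alone, with PECAM1 at most 0.324 RPKM and CDH5 at most 0.0123, and the part of endothelial RNA in the results was not tested. The relative depth of the samples, read from the steps of the low values, was 1.0 to 1.21, lowest in the 2 vehicle samples. The 2 Dex 4 h samples differed by transcript length: replicate 1 minus replicate 2 had a median log2 difference of 0.12 over the shortest 25% of 11664 genes and -0.17 over the longest 25%, which held 26 of the 39 genes tested here. The standard deviation of the replicate difference over the 39 genes was 0.249 (log2) at Dex 4 h and 0.0954 to 0.148 in the other groups. The part of transcript length in the results was not tested, other than by recentring the values by length. The calls of the 39 genes that were lost by this are named with them below.

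The promoters of the 3 integrin α genes with the largest differences are shown so that they can be read beside the expression values. Each is the 250 bases before the RefSeq start, 5′ to 3′ on the coding strand, placed on GRCh37 by an exact match, and capitals mark the motifs that were found. The motifs searched on both strands were the glucocorticoid response element (AGAACA, any 3 bases and TGTTCT), its core TGTTCT (a part of that element), the AP-1 motif TGANTCA, the NF-kB motif (GGG, any 2 bases and TTTCC), the GC box GGGCGG and the TATA box TATAAA. The ITGA5 window lies at chr12:54813051-54813300 on the minus strand, has 70.0% G and C, and holds 1 GC box. The ITGA10 window lies at chr1:145524780-145525029 on the plus strand, has 48.4% G and C, and holds 1 core at positions -212 to -207 from the start. The ITGA2 window lies at chr5:52284932-52285181 on the plus strand, has 76.4% G and C, and holds 4 GC boxes.
ITGA5: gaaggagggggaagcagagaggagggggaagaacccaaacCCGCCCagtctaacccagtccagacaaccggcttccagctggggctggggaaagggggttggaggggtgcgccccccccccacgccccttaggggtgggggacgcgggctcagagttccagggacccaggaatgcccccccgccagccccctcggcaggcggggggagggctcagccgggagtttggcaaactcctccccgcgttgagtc
ITGA10: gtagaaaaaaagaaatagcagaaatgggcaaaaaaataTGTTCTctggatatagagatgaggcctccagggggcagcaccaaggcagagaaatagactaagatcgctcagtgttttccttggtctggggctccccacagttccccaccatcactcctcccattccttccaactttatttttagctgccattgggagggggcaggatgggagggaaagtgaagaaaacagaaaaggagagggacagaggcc
ITGA2: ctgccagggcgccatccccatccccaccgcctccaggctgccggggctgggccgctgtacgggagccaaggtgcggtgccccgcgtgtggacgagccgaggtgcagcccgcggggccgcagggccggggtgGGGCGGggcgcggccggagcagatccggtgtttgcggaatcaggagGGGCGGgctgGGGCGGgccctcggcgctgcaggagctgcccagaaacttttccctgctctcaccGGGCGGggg
Over the 30 tested genes with a promoter in the table, 0 held the full response element, 3 held its core, 1 the AP-1 motif, 1 the NF-kB motif, 21 the GC box and 5 the TATA box. Of the 27305 promoters in the table, the same motifs were in 0.00366%, 12.4%, 6.6%, 1.73%, 42.3% and 11.1%. The other genes with the core were COL5A1 and ITGA6. A match is a description of the letters and not a binding site.

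In vehicle-treated cells the integrin genes had the largest summed RPKM of the families, mostly through ITGA3 and ITGB1. RPKM is per length, so levels are set side by side here, although how transcripts were combined into symbols is not given. ITGA3, an α subunit that binds laminin, had 516 and 506 RPKM, and ITGB1, the β subunit shared by most α subunits, had 245 and 244. They were followed by the laminin receptor α subunit ITGA6 (88.2 and 85.9), then ITGB5 (69.7 and 67.7), a partner of ITGAV, and ITGB4 (69.4 and 62.3), the partner of ITGA6 in hemidesmosomes. ITGB5 and ITGB4 overlapped, whereas the first 3 were each separated from their neighbours by more than the replicate difference. Next came ITGA5 (44.2 and 39.8), ITGA2 (29.1 and 29.4) and ITGAV (26.2 and 26.6), and the other 6 integrin genes tested were at 1.46 to 5.23 RPKM. LAMB3 led the laminin chains with 130.2 and 130.8 RPKM, ahead of LAMB2 (61.8 and 59.2), LAMC1 (37.2 and 37.9), LAMB1 (32.6 and 32.8) and LAMA5 (20.5 and 18.1). LAMA3, the α chain that assembles with LAMB3, was at 3.97 and 3.43 RPKM. Among the collagens, COL18A1 (67.9 and 65.6 RPKM), COL5A1 (55.3 and 53.0), COL13A1 (53.3 and 51.9), COL6A1 (50.5 and 50.5) and COL8A1 (44.9 and 41.7) were highest, and COL5A1 and COL13A1 overlapped. COL4A2 (40.7 and 42.1), which overlapped COL8A1, exceeded COL4A1 (11.03 and 12.34), although their products assemble into the same type IV trimer, and COL1A2 (8.57 and 8.33) exceeded its type I partner COL1A1 (2.14 and 2.60). The summed RPKM in the 10 samples was 402 to 437 over the 40 collagen genes, 256 to 302 over the 11 laminin genes and 979 to 1194 over the 26 integrin genes, and all 77 genes took 0.523% to 0.607% of the RPKM. The laminin sum was highest in both vehicle samples, and the integrin sum lowest in both CpdA 4 h samples.

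**Figure D1:**
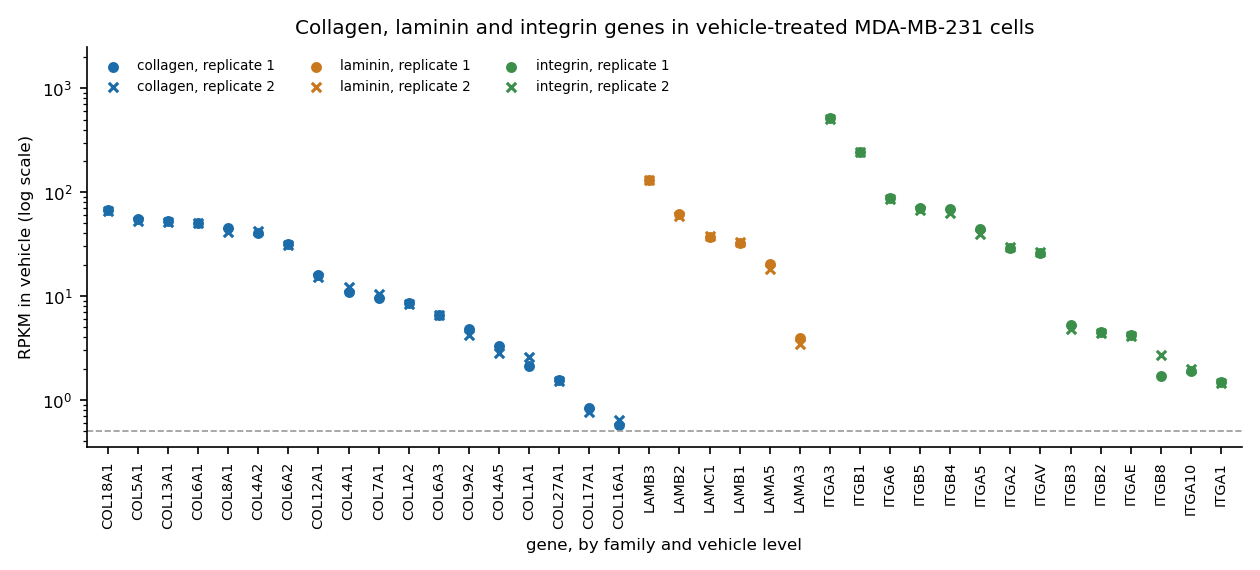
RPKM in the 2 vehicle samples (log axis) for 38 of the 39 genes tested, in order of level within each family. Circles are replicate 1, crosses replicate 2, and the dashed line marks 0.5 RPKM. ITGA3 and ITGB1 lie above every collagen and laminin gene, and LAMB3 is the highest laminin chain.

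With Dex, ITGA5 and ITGA10 rose more than 2-fold, COL1A1 and ITGA2 fell by more than 1.5-fold, and the other genes that passed moved by less. At 2 h, 6 of the 39 genes passed the test (limma on log2(RPKM + 0.1), Benjamini-Hochberg adjusted p under 0.05 over all genes tested), 4 higher and 2 lower, beside 10.3% of all 12713 genes (4.49% higher and 5.82% lower). At 4 h, 15 of 39 passed, 6 higher and 9 lower, beside 27.4% of all genes (9.26% higher and 18.2% lower). Past 2-fold higher there was ITGA5 at 2 h (1.34% of all genes) and ITGA5 and ITGA10 at 4 h (2.1% of all genes). The median log2 difference of the 39 genes was 0.01 at 2 h and -0.11 at 4 h, beside -0.02 and -0.05 over all genes tested and -0.01 and -0.11 over the longest 25% of transcripts. After median scaling the split at 4 h was 8 higher and 7 lower, and after recentring by transcript length 10 higher and 7 lower. By family, 1 of 18 collagen, 1 of 7 laminin and 4 of 14 integrin genes passed at 2 h, and 8, 2 and 5 at 4 h.

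With CpdA the largest change that passed was that of COL1A1 at 4 h (-0.55 on the log2 scale), and most of the genes that passed at 4 h were lower. At 2 h, 2 of 39 passed (1 higher and 1 lower), beside 6.18% of all genes (1.89% higher and 4.29% lower). At 4 h, 9 of 39 passed (1 higher and 8 lower), beside 20.5% of all genes (6.76% higher and 13.8% lower). The median log2 difference was 0.01 at 2 h and -0.08 at 4 h, beside -0.02 and -0.04 over all genes tested. The 9 genes at 4 h were 2 of 18 collagen, 4 of 7 laminin and 3 of 14 integrin genes, and after median scaling the split was 2 higher and 5 lower. Across the 5 groups 20 of 39 genes differed in limma's moderated F-test, beside 41.4% of all genes, which were 7 collagen, 4 laminin and 9 integrin genes.

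**Figure D2:**
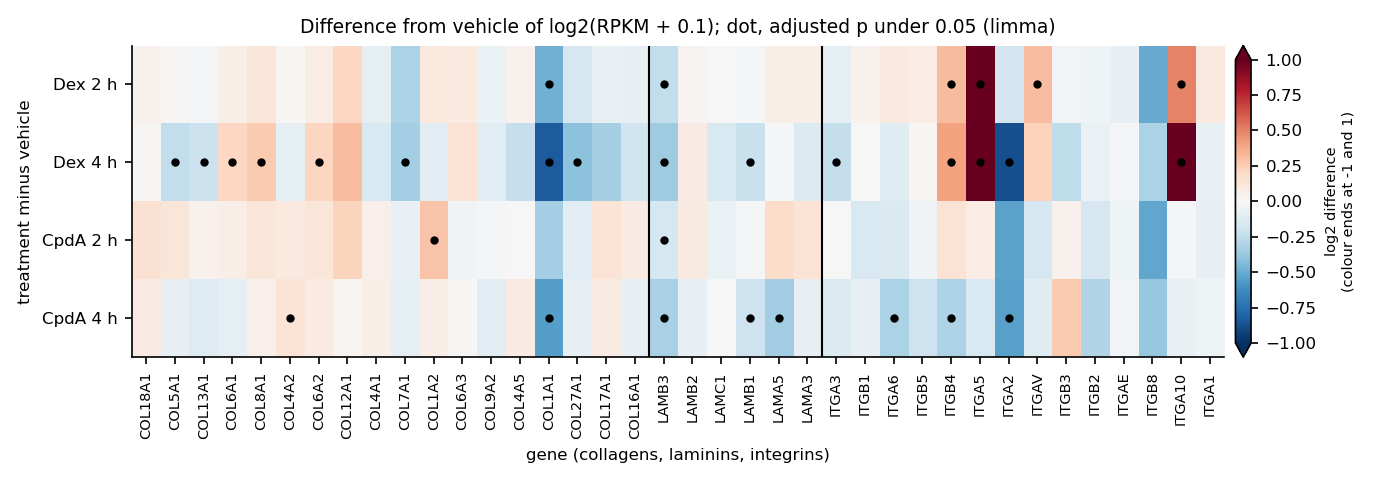
Difference of each treatment from vehicle on the log2(RPKM + 0.1) scale for 38 of the 39 genes, ordered by family and by vehicle level, with black lines between families. Colours end at -1 and 1, and a dot marks an adjusted p under 0.05 in limma. ITGA5 lies past the colour limit in both Dex rows and ITGA10 in the Dex 4 h row, and LAMB3 carries a dot in each of the 4 rows.

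COL1A1, which encodes the main chain of fibrillar type I collagen, was lower in every treated sample than in vehicle. It was at 2.14 and 2.60 RPKM in vehicle, 1.63 and 1.69 with Dex at 2 h and 1.33 and 1.23 at 4 h, and 1.84 and 1.85 with CpdA at 2 h and 1.55 and 1.62 at 4 h. The Dex 4 h samples were the lowest and overlapped with no other group, while the vehicle samples differed from each other by more than any treated pair. In limma COL1A1 fell by 0.48 on the log2 scale at Dex 2 h (adjusted p = 0.0178), by 0.83 at Dex 4 h (SE 0.105, adjusted p = 0.000358) and by 0.55 at CpdA 4 h (adjusted p = 0.00654), and its log2 difference at CpdA 2 h was -0.34 (adjusted p = 0.101). The Dex 4 h call held without each sample in turn. The Dex 2 h call was lost without vehicle replicate 2 (-0.35, adjusted p = 0.103) or without Dex 2 h replicate 1 (-0.46, adjusted p = 0.125) or 2 (-0.51, adjusted p = 0.0758), and the CpdA 4 h call without CpdA 4 h replicate 1 (-0.52, adjusted p = 0.0585). COL1A2, the other chain of type I collagen, was at 8.57 and 8.33 RPKM in vehicle, 8.12 and 7.60 at Dex 4 h and 10.7 and 9.94 at CpdA 2 h. Its log2 difference was -0.10 at Dex 4 h (adjusted p = 0.30) and 0.28 at CpdA 2 h (adjusted p = 0.0440), a call that was lost without either vehicle, either CpdA 2 h or either CpdA 4 h sample (adjusted p = 0.0695 to 0.298).

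The type VI collagen genes COL6A1 and COL6A2, which encode chains of the beaded microfibrils near cell surfaces and are 93062 bases apart on chromosome 21 (COL6A1 at 47401684 to 47424964 and COL6A2 at 47518026 to 47552762, both plus strand, GRCh37), rose at Dex 4 h. COL6A1 was at 50.5 and 50.5 RPKM in vehicle, 51.6 and 53.4 with Dex at 2 h and 60.6 and 56.2 at 4 h, and 53.4 and 52.6 with CpdA at 2 h and 47.2 and 47.9 at 4 h. Both Dex 4 h samples lay above the other 8, and both CpdA 4 h samples below. COL6A2 was at 31.3 and 31.2 RPKM in vehicle and 37.7 and 34.9 at Dex 4 h, the 2 highest of its 10 values. The log2 difference from vehicle at Dex 4 h was 0.21 in limma for each gene (adjusted p = 0.00683 for COL6A1 and 0.00809 for COL6A2). Both calls held without each sample in turn, but were lost when limma was fitted to the 4 samples compared alone (adjusted p = 0.0967 and 0.0972). COL6A3, the long chain of the same collagen, was at 6.57 and 6.53 RPKM in vehicle and 6.04 and 8.72 at Dex 4 h, so that the Dex 4 h samples lay on either side of vehicle (log2 difference 0.15, limma adjusted p = 0.519).

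Among the other collagens, COL5A1, a minor fibrillar chain that controls fibril diameter, was at 55.3 and 53.0 RPKM in vehicle, 55.6 and 53.5 with Dex at 2 h and 44.9 and 46.2 at 4 h, and 58.4 and 59.6 with CpdA at 2 h and 52.1 and 50.4 at 4 h. The Dex 4 h samples were the 2 lowest. It fell by 0.25 on the log2 scale at Dex 4 h in limma (adjusted p = 0.00192), but after recentring by transcript length the difference was -0.15 and missed the threshold (adjusted p = 0.0594). The transmembrane collagen COL13A1 fell by 0.22 at Dex 4 h (adjusted p = 0.0132 in limma), which was lost without vehicle replicate 1 (-0.20, adjusted p = 0.0692) and after median scaling (-0.15, adjusted p = 0.109). COL8A1, a short-chain network collagen, was at 44.9 and 41.7 RPKM in vehicle and 47.8 and 56.0 at Dex 4 h, with a log2 difference of 0.26 (limma adjusted p = 0.0238) that was 0.14 without Dex 4 h replicate 2 (adjusted p = 0.0636) and 0.20 without vehicle replicate 2 (adjusted p = 0.131). COL7A1, which forms anchoring fibrils, fell by 0.34 at Dex 4 h (limma adjusted p = 0.0382), and this was -0.19 without Dex 4 h replicate 2 (adjusted p = 0.147) and -0.24 after recentring by length (adjusted p = 0.213). That call was also lost without either vehicle or any CpdA sample, with adjusted p of 0.0606 to 0.162. The fibrillar chain COL27A1 fell by 0.41 (limma adjusted p = 0.0187), a call lost without either vehicle sample or Dex 4 h replicate 1 (adjusted p = 0.0512 to 0.0739).

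The basement membrane chains COL4A1 and COL4A2 lie head to head on chromosome 13, and their annotated starts overlap. COL4A2 was at 40.7 and 42.1 RPKM in vehicle, 38.6 and 39.2 at Dex 4 h and 46.3 and 44.7 at CpdA 4 h, and COL4A1 at 11.03 and 12.34, 10.01 and 11.03, and 12.52 and 11.83. The COL4A2 values of the 3 groups did not overlap, whereas those of COL4A1 overlapped between vehicle and each ligand. The log2 difference of COL4A2 at CpdA 4 h was 0.13 (limma adjusted p = 0.0399), and the call was lost without either vehicle, Dex 2 h, CpdA 2 h or CpdA 4 h sample (adjusted p = 0.0511 to 0.256). COL18A1, the multiplexin of basement membranes whose C-terminal fragment is endostatin, was at 62.6 to 75.2 RPKM over the 10 samples, and no treatment passed the test for it. Of its annotated exon bases, 18.5% are shared with SLC19A1 on the opposite strand, and the counting is not stated to have used strand.

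LAMB3 (chromosome 1, 209788215 to 209825770, minus strand, GRCh37), the β chain of the epithelial laminin that binds the hemidesmosome integrin, was lower under every treatment. It was at 130.2 and 130.8 RPKM in vehicle, 109 and 111 with Dex at 2 h and 101 and 102 at 4 h, and 116 and 116 with CpdA at 2 h and 105 and 104 at 4 h. The 5 groups did not overlap. In limma it fell by 0.25 on the log2 scale at Dex 2 h (adjusted p = 0.00126), by 0.36 at Dex 4 h (SE 0.0334, adjusted p = 5.27e-05), by 0.17 at CpdA 2 h (adjusted p = 0.0209) and by 0.32 at CpdA 4 h (adjusted p = 0.000286). The CpdA 2 h call was lost without vehicle replicate 2 or any CpdA sample (adjusted p = 0.0570 to 0.172), and the other 3 held without each sample in turn.

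LAMA3, whose product assembles with that of LAMB3, was at 2.77 to 4.37 RPKM and passed in no comparison.

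LAMB1 and LAMA5 belong to laminins of most basement membranes. LAMB1 was at 32.6 and 32.8 RPKM in vehicle, 33.3 and 31.2 with Dex at 2 h and 26.9 and 29.2 at 4 h, and 32.3 and 32.6 with CpdA at 2 h and 28.1 and 28.5 at 4 h. The 4 h samples of both ligands lay below all the others. It fell by 0.22 on the log2 scale at Dex 4 h (limma adjusted p = 0.00903) and by 0.21 at CpdA 4 h (limma adjusted p = 0.0161), and recentring by length moved the former to -0.13 (adjusted p = 0.0395). The Dex 4 h call was lost when limma was fitted to the 4 samples compared alone (adjusted p = 0.0905). The CpdA 4 h call was lost without either vehicle or either CpdA 4 h sample (adjusted p = 0.0575 to 0.108) and after median scaling (-0.14, adjusted p = 0.0669). LAMA5 was at 20.5 and 18.1 RPKM in vehicle and 14.6 and 15.6 at CpdA 4 h, the 2 lowest of 10 values (log2 difference -0.35, limma adjusted p = 0.0487). That call was lost without each sample other than the Dex 4 h pair (adjusted p = 0.0564 to 0.233), and the value was -0.26 without vehicle replicate 1. LAMC1, the common γ chain, was at 35.0 to 38.6 RPKM in 9 samples and 30.0 in Dex 4 h replicate 1, and passed in no comparison.

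ITGA5 (chromosome 12, 54789045 to 54813050, minus strand, GRCh37), the α subunit of the fibronectin receptor, rose most of the 39 genes. It was at 44.2 and 39.8 RPKM in vehicle, 116 and 122 with Dex at 2 h and 169 and 178 at 4 h, and 43.4 and 44.9 with CpdA at 2 h and 37.7 and 38.0 at 4 h. All 4 Dex samples were far above the other 6, the Dex 4 h samples above the Dex 2 h samples, and the CpdA 2 h samples overlapped with vehicle. Relative to vehicle it rose 2.83-fold at Dex 2 h (SE 0.0556 on the log2 scale, adjusted p = 2.36e-07 in limma) and 4.12-fold at Dex 4 h (log2 difference 2.04, SE 0.0556, adjusted p = 2.44e-08), and its log2 difference was 0.07 at CpdA 2 h (adjusted p = 0.51) and -0.15 at CpdA 4 h (adjusted p = 0.0943). Both Dex calls held without each sample in turn. Its partner ITGB1 was at 219.6 to 259 RPKM over the 10 samples and passed against vehicle in no treatment. The gene of their ligand, fibronectin (FN1), was at 296 and 298 RPKM in vehicle and 278 and 415 at Dex 4 h, with replicates on either side of vehicle (log2 difference 0.19, limma adjusted p = 0.465).

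The collagen-binding α subunits ITGA10 and ITGA2 moved in opposite directions under Dex. ITGA10 (chromosome 1, 145524969 to 145543868, plus strand, GRCh37), known from cartilage, was at 1.91 and 1.99 RPKM in vehicle, 2.57 and 3.05 with Dex at 2 h and 6.29 and 5.02 at 4 h, and 1.84 and 2.03 with CpdA at 2 h and 1.81 and 1.90 at 4 h. The Dex samples exceeded all others, with no overlap between 2 h and 4 h. It rose by 1.48 on the log2 scale at Dex 4 h (2.79-fold, SE 0.121, adjusted p = 2.2e-05 in limma), which held without each sample in turn, and by 0.50 at Dex 2 h (adjusted p = 0.0296). The 2 h call was lost without either vehicle, Dex 2 h replicate 2 or either CpdA 4 h sample (adjusted p = 0.0535 to 0.20), with a log2 difference of 0.38 without Dex 2 h replicate 2, and with no filter on low values (adjusted p = 0.0863).

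ITGA2 (chromosome 5, 52285170 to 52390609, plus strand, GRCh37) was at 29.1 and 29.4 RPKM in vehicle, 24.5 and 26.9 with Dex at 2 h and 12.8 and 19.6 at 4 h, and 18.8 and 21.6 with CpdA at 2 h and 19.2 and 21.0 at 4 h. Every treated sample was below vehicle, and the Dex 4 h samples differed from each other by more than those of the other groups. It fell by 0.88 on the log2 scale at Dex 4 h (SE 0.161, adjusted p = 0.0034 in limma), and by 0.57 without Dex 4 h replicate 1 (adjusted p = 0.00251). At CpdA 4 h it fell by 0.54 (limma adjusted p = 0.0443), but this call was lost without each sample other than the Dex 4 h pair (adjusted p = 0.0598 to 0.211), and at CpdA 2 h the difference was -0.53 (adjusted p = 0.0946). ITGA1, the collagen receptor gene that precedes ITGA2 on chromosome 5 by 30131 bases, was at 1.28 to 1.61 RPKM and passed in no comparison.

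**Figure D3:**
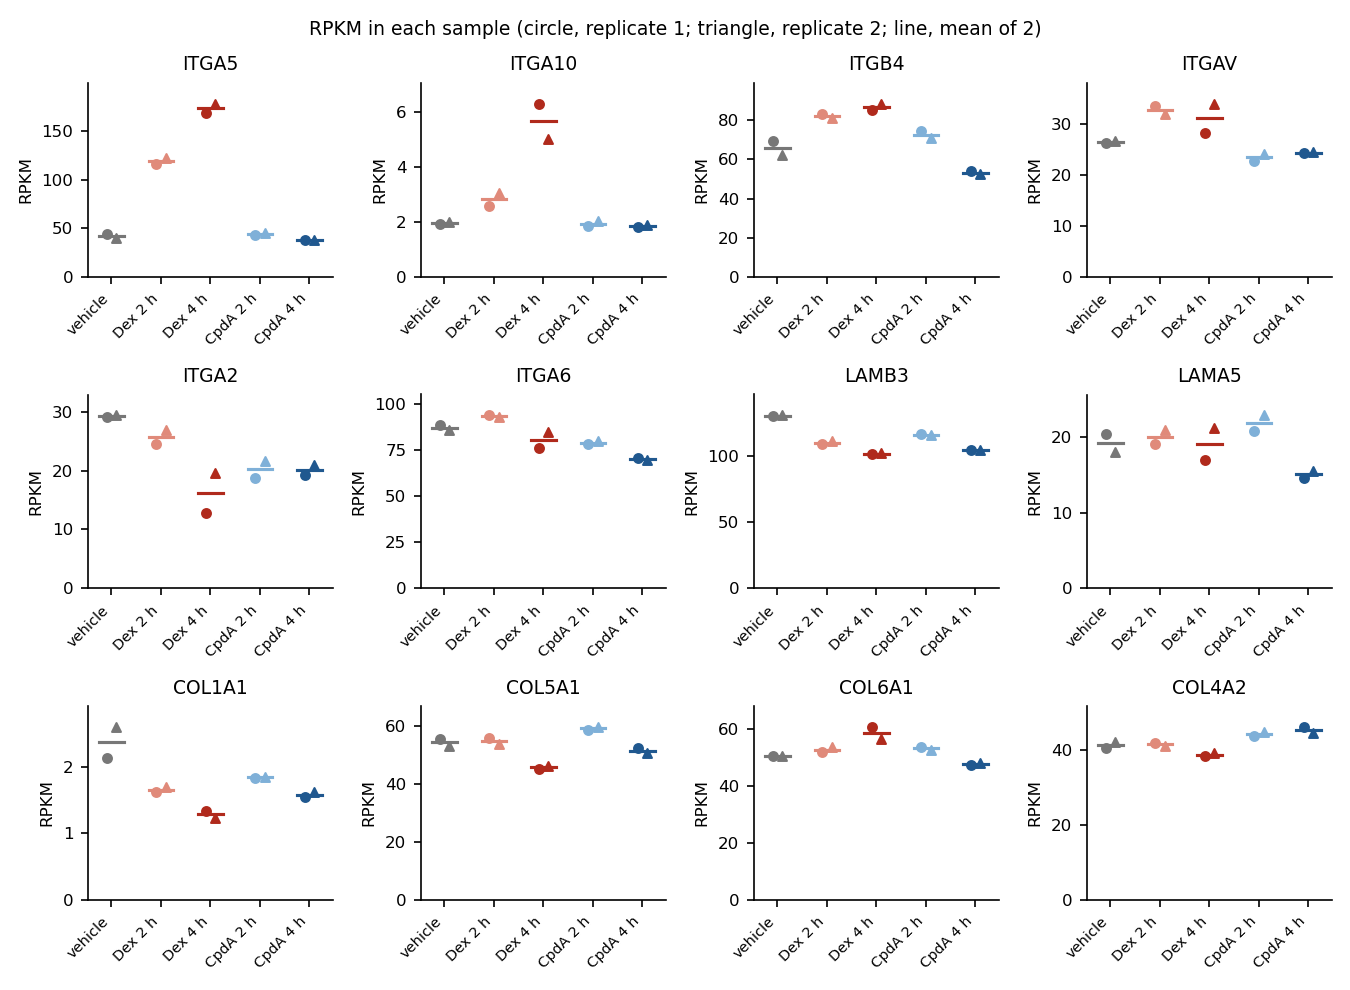
RPKM of 12 genes in each of the 10 samples, from 0 on a linear axis that differs between panels. Circles are replicate 1, triangles replicate 2, and lines the mean of the 2. The Dex samples of ITGA5 and ITGA10 lie above all others, those of ITGB4 rise while its CpdA 4 h samples fall, and COL1A1 and LAMB3 lie below vehicle in every treated sample.

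ITGB4, the β subunit of the hemidesmosome, differed in direction between the ligands at 4 h. ITGB4 (chromosome 17, 73717408 to 73753899, plus strand, GRCh37) was at 69.4 and 62.3 RPKM in vehicle, 83.2 and 81.1 with Dex at 2 h and 85.2 and 88.4 at 4 h, and 74.4 and 71.0 with CpdA at 2 h and 53.9 and 52.5 at 4 h. The groups did not overlap. In limma it rose by 0.32 on the log2 scale at Dex 2 h (adjusted p = 0.00479) and by 0.40 at Dex 4 h (SE 0.0545, adjusted p = 0.00058), and fell by 0.31 at CpdA 4 h (adjusted p = 0.00441). These 3 calls held without each sample in turn. Its partner ITGA6 was at 88.2 and 85.9 RPKM in vehicle, 93.7 and 92.9 with Dex at 2 h and 75.8 and 84.4 at 4 h, and 77.9 and 79.7 with CpdA at 2 h and 70.3 and 69.3 at 4 h. It fell at CpdA 4 h by 0.32 (limma adjusted p = 0.00252), also without each sample in turn, and passed against vehicle in neither Dex group.

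Of the other abundant integrins, ITGAV, the α subunit of the vitronectin receptors, was at 26.2 and 26.6 RPKM in vehicle, 33.6 and 32.0 with Dex at 2 h and 28.3 and 34.0 at 4 h, and 22.8 and 24.1 with CpdA at 2 h and 24.2 and 24.4 at 4 h. All 4 Dex samples were above vehicle and all 4 CpdA samples below. Its log2 difference was 0.31 at Dex 2 h (limma adjusted p = 0.0307), a call lost without either vehicle, either Dex 2 h or either CpdA 4 h sample (adjusted p = 0.0583 to 0.197), and 0.23 at Dex 4 h (adjusted p = 0.0502). ITGA3 fell by 0.23 at Dex 4 h, from 516 and 506 RPKM in vehicle to 419.7 and 449.9 (limma adjusted p = 0.00467). This call held without each sample in turn, but was lost when limma was fitted to the 4 samples compared alone (adjusted p = 0.103). ITGB5 was at 57.1 to 75.8 RPKM and passed against vehicle in no treatment. ITGB8, a partner of ITGAV, was at 1.69 and 2.69 RPKM in vehicle and 1.43 to 1.85 in the 8 treated samples, so that the vehicle samples differed from each other by more than the group means did, and it passed in no comparison.

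The ligands were then compared at the same time, without reference to vehicle. At 2 h, 5 of 39 genes passed, all 5 higher with Dex, beside 13.7% of all genes (7.53% higher and 6.18% lower). All 5 were integrins: ITGA5 (log2 difference 1.43), ITGA10 (0.51), ITGAV (0.48), ITGA6 (0.24) and ITGB1 (0.19), whose limma adjusted p ran from 2.92e-07 to 0.0205. ITGA5, past 2-fold higher (1.36% of all genes), and ITGAV held without each sample in turn. ITGA10 was lost without Dex 2 h replicate 2 or either CpdA 2 h sample (adjusted p = 0.062 to 0.156), ITGA6 without any of the 4 samples compared (0.0586 to 0.101), and ITGB1 without Dex 2 h replicate 1 or either CpdA 2 h sample (0.0986 to 0.156).

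At 4 h, 16 of 39 passed, 10 higher and 6 lower with Dex, beside 33.4% of all genes (15.4% higher and 18% lower). Past 2-fold higher were ITGA5 (log2 difference 2.19, 95% interval 2.07 to 2.32, limma adjusted p = 1.41e-08) and ITGA10 (1.55, 1.28 to 1.82, adjusted p = 1.26e-05), beside 2.6% of all genes. ITGB4 was higher with Dex by 0.71 (0.58 to 0.83, limma adjusted p = 1.2e-05), ITGAV by 0.35 (adjusted p = 0.00664) and COL6A1 by 0.30 (adjusted p = 0.00077). ITGB3, a platelet and vitronectin receptor subunit that also pairs with ITGAV, was lower by 0.51 (limma adjusted p = 0.0016), at 4.03 and 4.32 RPKM with Dex and 6.32 and 5.69 with CpdA, with vehicle (5.23 and 4.77) in between. Of its annotated exon bases, 33.2% are shared with another protein-coding gene on the same strand, so reads cannot be given to ITGB3 with certainty. COL4A2 was lower with Dex by 0.23 (limma adjusted p = 0.00194). These 7 calls held without each sample in turn, with ITGAV at 0.22 without Dex 4 h replicate 2.

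The other 9 calls of this comparison were lost without at least 1 sample. LAMA5 (0.33) was 0.17 without Dex 4 h replicate 2 (limma adjusted p = 0.193), COL8A1 (0.21) was 0.32 without Dex 4 h replicate 1 and 0.10 without replicate 2, and ITGA6 (0.20) was 0.12 without Dex 4 h replicate 2 and was lost without either CpdA 4 h sample (adjusted p = 0.0639 and 0.0951). ITGB5 (0.23) and LAMB2 (0.16) were higher with Dex, and COL17A1 (-0.41), COL27A1 (-0.33), COL4A5 (-0.32) and COL5A1 (-0.17) were lower, with adjusted p of 0.0118 to 0.0406 in limma. Each of these 6 was lost without at least 1 of the CpdA 4 h samples (limma adjusted p = 0.0646 to 0.205), and each but COL5A1 without Dex 4 h replicate 1 (adjusted p = 0.0567 to 0.128). LAMA5, COL8A1, COL17A1 and COL27A1 were lost also without either Dex 2 h sample (adjusted p = 0.0525 to 0.0721), and COL5A1 also after recentring by length (-0.12, adjusted p = 0.0996). For COL1A1, ITGA2 and LAMB3, which were lower than vehicle under both ligands, the difference between ligands at 4 h was -0.28 (95% interval -0.52 to -0.05, limma adjusted p = 0.0677), -0.34 (-0.70 to 0.03) and -0.04 (-0.11 to 0.04), and none passed. The median of the 39 genes was -0.01, beside -0.02 over all genes tested.

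**Figure D4:**
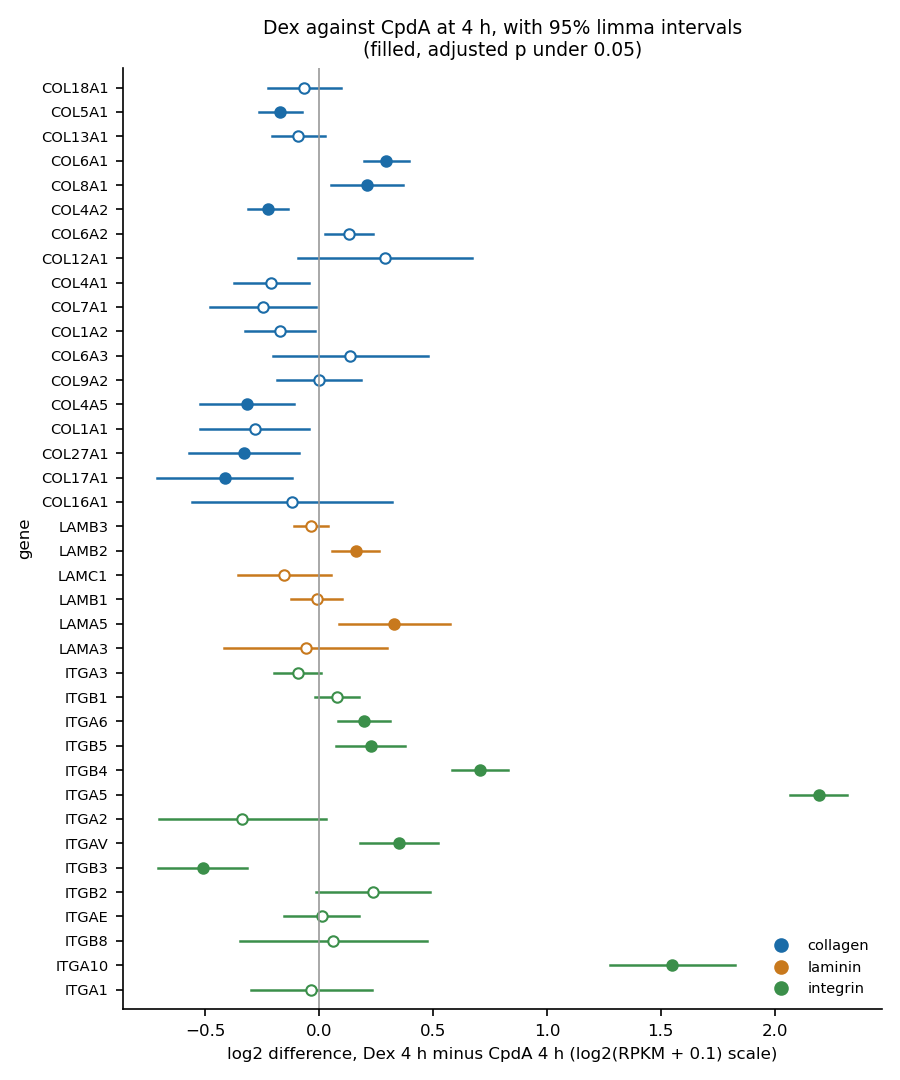
Dex 4 h minus CpdA 4 h on the log2(RPKM + 0.1) scale for 38 of the 39 genes, with 95% intervals from limma. Filled points passed at an adjusted p under 0.05, and colours are families. ITGA5 (2.19) and ITGA10 (1.55) lie apart from the other genes, ITGB4 follows at 0.71, and ITGB3 (-0.51) is the lowest.

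Between 2 h and 4 h of Dex, 7 of 39 genes passed, 2 higher and 5 lower at 4 h, beside 13.6% of all genes (4.55% higher and 9.02% lower). Neither time had a replicated vehicle, so a change with time in culture and a change with the ligand cannot be told apart. This holds also for the comparison of CpdA at 4 h and 2 h. ITGA10 rose further by 0.98 (limma adjusted p = 0.00115) and ITGA5 by 0.54 (adjusted p = 0.000477), and both held without each sample in turn. ITGA2 was lower by 0.69 (adjusted p = 0.0242), which was -0.39 without Dex 4 h replicate 1 and was lost without either Dex 2 h sample (limma adjusted p = 0.09 and 0.135). The other 4, COL5A1 (-0.26), ITGA6 (-0.22), COL13A1 (-0.21) and LAMB1 (-0.20), were each lost without Dex 2 h replicate 1 (limma adjusted p = 0.0506 to 0.191). After recentring by length, COL5A1 was at -0.16 (adjusted p = 0.0743) and LAMB1 at -0.12 (adjusted p = 0.077), and both missed the threshold. ITGA6, COL13A1 and LAMB1 were lost also without Dex 2 h replicate 2 (adjusted p = 0.0543 to 0.124), and COL13A1 and LAMB1 also without any CpdA sample (adjusted p = 0.0532 to 0.0578). ITGA6 was at -0.14 without Dex 4 h replicate 1 and still passed, LAMB1 was at -0.14 without it (limma adjusted p = 0.0929), and COL13A1 was at -0.14 without Dex 4 h replicate 2 (adjusted p = 0.055). After median scaling the split was 4 higher and 3 lower, and after recentring by length 5 higher and 4 lower. Between 2 h and 4 h of CpdA, 8 of 39 passed, all 8 lower at 4 h, beside 12.4% of all genes (5.21% higher and 7.2% lower). Of these, ITGB4, which fell by 0.45 (limma adjusted p = 0.00196), held without each sample in turn. LAMA5 (-0.53), ITGA5 (-0.22), COL5A1 (-0.20), LAMB1 (-0.20), LAMB2 (-0.17), COL6A1 (-0.16) and LAMB3 (-0.15) were lost without any 1 of the 4 samples compared, with limma adjusted p of 0.0645 to 0.258. COL6A1 was lost also without either vehicle or either Dex 2 h sample and LAMB2 also without either Dex 2 h sample (adjusted p = 0.0512 to 0.0747). All 3 tested laminin β chains were thus among the 8, but after median scaling all 3 were lost, and the split was 0 higher and 4 lower. Of the 7 laminin genes 6 had a log2 difference below 0, beside 6789 of all 12713 genes. LAMC1 had one of 0.06 (limma adjusted p = 0.707).

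The genes that act with collagens, laminins and integrins were counted in the same fit, in 3 lists. Of 26 tested genes for collagen-modifying enzymes and chaperones, 2 passed at Dex 2 h (both higher), 7 at Dex 4 h (4 higher and 3 lower), 0 at CpdA 2 h in limma (2 at an unadjusted p under 0.05) and 6 at CpdA 4 h (3 and 3). Of 14 other matrix glycoproteins and proteoglycans, 1, 5, 0 and 1 passed in the same comparisons (2 at an unadjusted p under 0.05 in limma at CpdA 2 h), with 2 higher and 3 lower at Dex 4 h. Of 27 integrin activators, linkers and other matrix receptors, 3, 10, 2 and 8 passed, with 6 higher and 4 lower at Dex 4 h and 1 higher and 7 lower at CpdA 4 h. The shares of all genes given above for the same comparisons were 10.3%, 27.4%, 6.18% and 20.5%. The median log2 differences of the 3 lists at Dex 4 h were 0.02, -0.01 and 0.01, beside -0.05 over all genes tested.

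Among the enzymes, ADAMTS14, which removes the N-terminal propeptide of fibrillar procollagens, was at 0.952 and 1.19 RPKM in vehicle, 1.83 and 1.99 with Dex at 2 h, 5.35 and 4.27 at 4 h and 0.795 to 1.04 in the 4 CpdA samples, and rose by 2.07 on the log2 scale at Dex 4 h (limma adjusted p = 1.11e-05). LOX, the lysyl oxidase that cross-links collagen and elastin, was at 28.1 and 30.2 RPKM in vehicle, 40.9 and 41.2 with Dex at 2 h, 54.4 and 59.2 at 4 h and 28.5 to 32.4 in CpdA, and rose by 0.96 at Dex 4 h (adjusted p = 1.2e-06). For both genes the Dex samples lay above all others. P3H2, a prolyl 3-hydroxylase of collagen, fell by 0.60 at Dex 4 h (adjusted p = 2.79e-05). LOXL1 (0.72) was higher and MIA3 (-0.64), which serves procollagen export, was lower with Dex than with CpdA at 4 h. LOXL1 was at 4.57 and 5.35 RPKM in vehicle, 6.34 and 5.61 at Dex 4 h and 3.50 and 3.67 at CpdA 4 h. MIA3 was at 11.2 and 10.3 RPKM in vehicle, 8.18 and 10.5 at Dex 4 h and 14.2 and 14.9 at CpdA 4 h. Of the matrix glycoproteins, FBLN1 rose by 1.48 and LTBP1 by 0.68 at Dex 4 h. FBLN1 was at 0.627 and 0.622 RPKM in vehicle, close to the limit of 0.5, and 1.85 and 1.99 at Dex 4 h. LTBP1 was at 6.14 and 5.91 RPKM in vehicle and 8.45 and 11.2 at Dex 4 h. Among the integrin partners, VCL (vinculin, which links integrin adhesions to actin) rose by 0.98 at Dex 4 h (adjusted p = 3.46e-06). FERMT3, the kindlin of blood cells, rose by 0.93 at CpdA 4 h (adjusted p = 0.00674). It was close to the limit of 0.5 RPKM, at 0.597 and 0.672 in vehicle and 1.36 and 1.23 at CpdA 4 h. BCAM, a receptor for laminin α5 chains, fell by 0.86 at CpdA 4 h (adjusted p = 0.00157). KANK2, a talin-binding protein, was higher with Dex than with CpdA at 4 h by 0.86. It was at 20.4 and 16.7 RPKM in vehicle, 22.5 and 25.4 at Dex 4 h and 12.8 and 13.5 at CpdA 4 h. All adjusted p in these sentences are from limma. For the 3 lists, only the number of calls was followed without each sample and after recentring by length. Whether the calls of single genes in them hold was not tested.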

How the data were processed

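RNA was sequenced in 10 samples (5 groups of 2, biological duplicates per the study's methods, although the headers of the vehicle pair carry different times). The labels list 12 further ChIP samples, which were not analysed here. The authors aligned 50 bp single-end reads with TopHat2 2.0.13 and computed RPKM in Partek 6.6. The submitters' processing notes name hg19. The deposited values are RPKM for 20668 symbols, so totals of reads are unknown, no counting interval is given, and how transcripts were combined into symbols is not given in the sources used here. A shift between samples that depends on transcript length is not removed by RPKM, and moves long genes such as these together.

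Members were matched by symbol, and the members and lists were chosen with earlier results of these data known. Values were transformed to log2(RPKM + 0.1), and fold changes are on that scale, which understates changes of low genes. Genes at 0.5 RPKM or more in at least 2 samples were fitted over the 5 groups with limma 3.58.1 in R 4.3.3 (lmFit, eBayes with an abundance trend), two-sided, with Benjamini-Hochberg adjustment over 12713 genes for each of 8 comparisons and 1 F-test. The authors tested in Partek, which was not used here. Residual degrees of freedom were 5, and an exact permutation test of 2 against 2 samples could not go below p = 0.333.

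Genes were named when they passed with a change of at least 1.5-fold, were among the 5 highest of their family in vehicle, or belonged to a list of widely expressed subunits (ITGB1, ITGAV, ITGA3, ITGA6, ITGB4, ITGB5, LAMC1, LAMB1, LAMA5, LAMB3, COL4A1, COL4A2, COL1A1, COL6A1 and COL18A1). For the other 3 lists, genes past 1.5-fold were named, at most 4 a list and comparison. The other members named were chosen after their values were seen, and 1 tested gene is counted but not reported here. Alternatives were a pseudocount of 1 or 0.01, every gene above 0 in any sample, a stricter filter (1 RPKM in every sample), quantile normalization, median scaling, no abundance trend, the replicate number as a block, the 4 compared samples alone, each sample left out and, added after seeing the data, recentring of each sample in 20 bins of transcript length.

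Positions and lengths came from GENCODE release 44 lifted to GRCh37, in which all 77 members were found; lengths were available for 91.7% of the genes tested. RefSeq promoters were found for 57 members, 30 of them tested. Python 3.11.15 (pandas 2.3.3, numpy 2.4.6, matplotlib 3.10.9) made tables and figures.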

Additional observations from a re-analysis of the deposited data

Results flagged for a closer look

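For 4 genes the difference between Dex and CpdA itself differed between 2 h and 4 h, in a limma contrast that was chosen after seeing the data and passed for 4 of 39 genes (10.3%), beside 839 of 12713 (6.6%). The difference for ITGA10 was larger at 4 h by 1.04 on the log2 scale (0.51 at 2 h and 1.55 at 4 h, SE 0.17, adjusted p = 0.00866), with both Dex 4 h samples above both Dex 2 h samples and CpdA at 1.81 to 2.03 RPKM throughout. The difference for ITGA5 was larger by 0.76 (1.43 and 2.19, SE 0.0787, adjusted p = 0.00119). The difference for ITGB4 was larger by 0.53 (0.18 and 0.71, SE 0.0771, adjusted p = 0.0052), where CpdA fell from 74.4 and 71.0 RPKM at 2 h to 53.9 and 52.5 at 4 h while Dex was at 81.1 to 88.4. The difference for COL6A1 was larger by 0.31 (-0.01 and 0.30, SE 0.0619, adjusted p = 0.0205). The Dex 4 h samples differed from each other by transcript length, as given above, and the part of this in the 4 results was not tested. No group of 2 could be examined for a sample far from the others.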

How the results depend on the processing

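Of the 68 calls of these genes in the 8 comparisons, 29 held without each sample in turn and 24 under every alternative, and no call reversed. In the order Dex 2 h, Dex 4 h, CpdA 2 h and CpdA 4 h against vehicle, Dex against CpdA at 2 h and 4 h, Dex 4 h against 2 h and CpdA 4 h against 2 h, leaving out 1 sample gave 3 to 7, 13 to 19, 0 to 7, 3 to 13, 2 to 6, 8 to 18, 2 to 14 and 1 to 12 genes, and 15 to 24 in the F-test. The highest count came without a Dex 4 h sample in each of these (for Dex against CpdA at 2 h also without either vehicle sample). The lowest came without vehicle or Dex 2 h replicate 2 in the first, either vehicle sample in the second, vehicle replicate 2 or any CpdA sample in the third, CpdA 4 h replicate 1 in the fourth, either CpdA 2 h sample in the fifth, either CpdA 4 h sample in the sixth, Dex 2 h replicate 1 in the seventh and any CpdA sample in the eighth. For the 3 lists together the ranges were 3 to 9, 16 to 29, 0 to 5, 3 to 20, 4 to 16, 21 to 37, 7 to 25 and 0 to 18, with the highest again without a Dex 4 h sample (at Dex 2 h equally without vehicle replicate 1).

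CpdA 2 h against vehicle (2 genes) gave 1 with no filter, 1 with median scaling, 0 with no abundance trend in limma (12 at an unadjusted p under 0.05 in the fit with the trend), 1 with the 4 samples alone and 5 with length recentring. With the 4 samples alone Dex 4 h against vehicle gave 7, Dex against CpdA at 4 h 7 and Dex 4 h against 2 h 2. With no filter Dex 4 h against 2 h gave 4, and CpdA 4 h against 2 h gave 4 with no filter, median scaling or no trend. For the 3 lists (6, 22, 2, 15, 11, 27, 12 and 8 genes), length recentring gave 10 at Dex 2 h, 5 at CpdA 2 h and 14 for CpdA 4 h against 2 h. No trend gave 1 at CpdA 2 h and 7 for Dex against CpdA at 2 h, no filter gave 5 for CpdA 4 h against 2 h, and the 4 samples alone gave 11 at Dex 4 h, 21 for Dex against CpdA at 2 h, 7 for Dex 4 h against 2 h and 25 for CpdA 4 h against 2 h. The cause was not tested. Higher and lower calls after median scaling were 1 and 0 at CpdA 2 h, and after quantile normalization 1 and 2; for Dex against CpdA at 2 h they were 6 and 1 after length recentring. Median scaling moved the median of all genes by at most 0.07 (log2).

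Deviations of samples with the same replicate number correlated at a mean of 0.0544 over 10 pairs of groups (-0.0568 to 0.198, 7 of them above 0). A low mean does not show that the samples were unpaired, and whether the numbers pair them was not settled. With the number as a replicate block, the count was 4 at CpdA 2 h, 8 for Dex against CpdA at 2 h and 11 for Dex 4 h against 2 h, 6 for the 3 lists at CpdA 2 h, and of the 68 calls COL7A1 at Dex 4 h (adjusted p = 0.0511, limma) and COL8A1 between ligands at 4 h (0.0517) were lost.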
